A study of Mus musculus with 23 samples.

Results

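Basal SOX10 high cells of PY230 tumours were compared with luminal SOX10 high cells of PY230 tumours, so that the lineage differed while Sox10 RNA stood at a like level. The comparison rests on 4 of the 23 RNA-seq libraries of the series, chosen by their titles, with 2 libraries of each fraction. PY230 is a mouse mammary tumour cell line of the C57BL6J strain, known to come from an MMTV-PyMT mouse, in which polyoma middle T antigen is driven in mammary epithelium. All PY230 cells compared here therefore share that origin. They were grown as tumours in syngeneic mice, and the dissected tumours were sorted by flow cytometry into about 2000 cells per library. The 2 luminal SOX10 low libraries of the same table are given as a further level and share in the estimate of the spread. Adult basal cells and adult luminal progenitors from normal C57BL6J mammary glands, 2 libraries each in a table made separately, are set beside the tumour cells. The sources used here do not give the sort markers, the gates or the way SOX10 levels were set. The fractions stem from 1 cell line, and no label says which mouse or tumour a library came from. The design text calls the libraries biological replicates, and p-values measure the spread between these libraries, part of which may be technical.

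The mammary epithelium is a bilayer. Its basal, or myoepithelial, cells lie on the basement membrane, carry keratins 5 and 14 and contract to eject milk, while its luminal cells line the lumen, carry keratins 8 and 18 and are joined by tight junctions. Luminal cells divide into progenitors of the secretory line, marked by Kit and Elf5, and mature cells that sense oestrogen and progesterone. SOX10 is a transcription factor of the neural crest and its glia that is also found in fetal mammary cells and in mammary stem and progenitor cells.

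Values are RPKM as deposited, read numbers made relative to gene length and to the reads of a library, and are given for the 2 libraries of each fraction in the order of their replicate numbers. Fold changes are differences of log2(RPKM + 1), basal minus luminal, with their standard error. The added 1 understates the change of genes near 0. A gene was called higher or lower at a Benjamini-Hochberg adjusted p under 0.05 in limma, fitted over the 6 PY230 libraries. In bulk libraries, fewer cells of a type and less RNA per cell cannot be told apart.

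Between 11918 and 12405 genes reached 1 RPKM in a PY230 library, and the libraries' depths, relative to that of basal library 1, ran from 0.758 to 1.35, as judged from the steps between low values. The basal libraries correlated at 0.979 across genes on the log2 scale, the luminal SOX10 high libraries at 0.971, and basal with luminal SOX10 high libraries at 0.821 to 0.833. Luminal SOX10 high library 2 lay nearer to the luminal SOX10 low libraries, at 0.947 and 0.940, than library 1 did, at 0.890 and 0.894. Calls of named genes that were lost without a library are given beside the result. The labels of the fractions were borne out by their markers: the 15 basal genes listed summed to 1440 and 1413 RPKM in basal cells, against 78.2 and 169 RPKM in luminal SOX10 high cells. The 20 luminal genes listed summed to 685 and 891 RPKM in basal cells, against 5455 and 6812 RPKM in luminal SOX10 high cells.

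Sox10 itself was at 71.97 and 78.3 RPKM in basal SOX10 high cells, against 101 and 66.9 RPKM in luminal SOX10 high cells and 13.6 and 11.01 RPKM in luminal SOX10 low cells. The basal libraries lay within the range of the luminal SOX10 high ones, and all 4 lay far above the SOX10 low ones. The difference of -0.13 ± 0.21 (SE, n = 2 each) did not pass the threshold (limma, adjusted p = 0.649; 95% interval -0.64 to 0.38). The difference was 0.003 after quantile normalization, 0.11 with median-of-ratios factors and 0.16 without luminal SOX10 high library 1 (adjusted p = 0.469), so its sign turned in each.

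At this like level of Sox10, the fractions differed across a wide range of genes. Of 13136 genes tested, 1814 were higher in basal cells, which is 13.8%, and 3699 were lower, which is 28.2%. The counts over gene lists given below are to be read beside these shares. The median of all genes stood at -0.21, and rescaling moved it: to -0.06 after quantile normalization, with 2383 genes (18.1%) higher and 2780 (21.2%) lower, and to -0.01 with median-of-ratios factors, with 2440 (18.6%) higher and 2340 (17.8%) lower. A small fall in basal cells is therefore to be read against that shift. Without basal library 1 the counts were 1357 higher and 2094 lower, and without basal library 2 they were 1379 and 2345. Large differences leaned towards basal cells: 419 genes were called higher by at least 2 on the log2 scale and 380 lower, and 44 were higher by at least 4 while 1 was lower by at least 4. Both basal libraries lay above both luminal SOX10 high libraries for 23.1% of the genes tested and below them for 49.1%. A lack of overlap is thus common here and is to be read beside these shares.

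**Figure D1:**
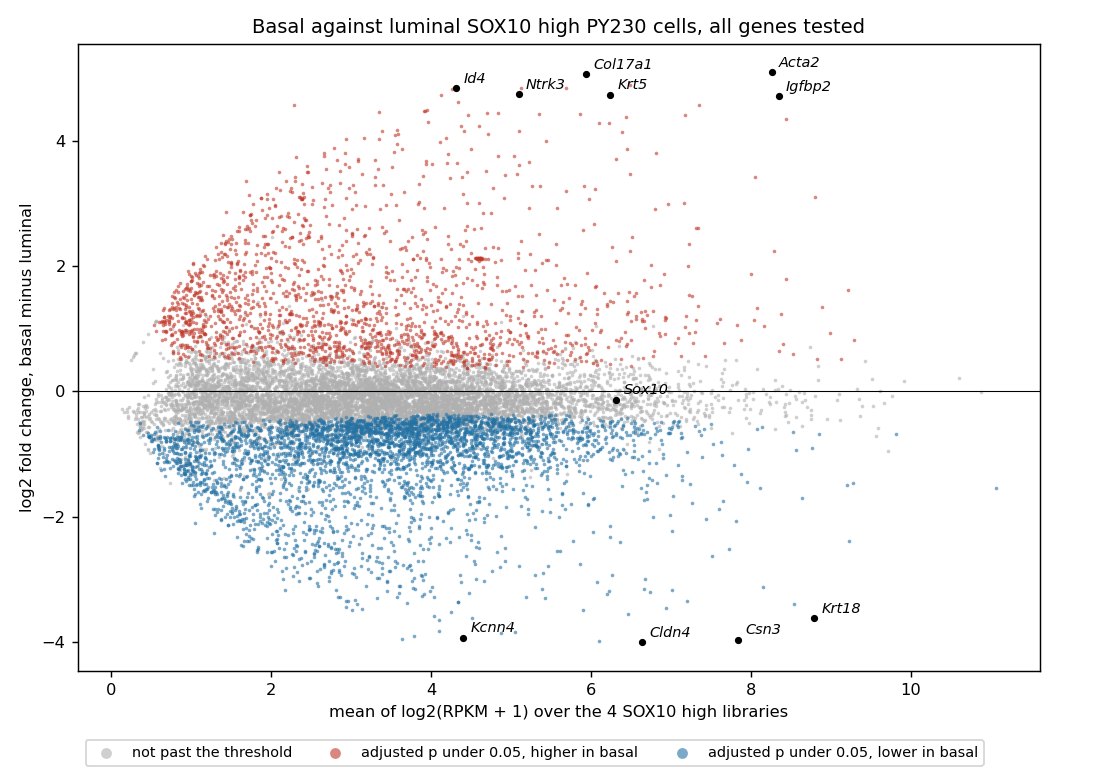
Each point is 1 of the 13136 genes tested, with its mean log2(RPKM + 1) over the 4 SOX10 high libraries on the horizontal axis and its log2 fold change, basal minus luminal, on the vertical axis. Genes past the threshold are red where higher and blue where lower in basal cells; the highest points reach 5.09 for Acta2 and the lowest -4.0 for Cldn4, with Sox10 near 0.

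The contractile apparatus of myoepithelial cells led the genes that were higher in basal cells. Smooth muscle actin (Acta2) was at 1904 and 1670.0 RPKM in basal cells, against 46.5 and 56.7 RPKM in luminal SOX10 high cells and 35.1 and 18.7 RPKM in luminal SOX10 low cells. The basal libraries stood 34.6-fold above the luminal SOX10 high ones by their means, with no overlap (5.09 ± 0.28, adjusted p = 9.38e-05). Smooth muscle myosin (Myh11) was at 131 and 78.3 RPKM in basal cells, against 2.62 and 2.55 RPKM in luminal SOX10 high cells (4.83 ± 0.24). The myosin light chain Myl9 was at 555 and 427 RPKM on the basal and 14.8 and 16.04 RPKM on the luminal SOX10 high side (4.90). Calponin (Cnn1) and the enteric smooth muscle actin Actg2 rose by 4.73 and 4.62 on the log2 scale. The oxytocin receptor Oxtr, through which suckling makes these cells contract, was at 17.3 and 17.04 RPKM in basal cells, against 0.361 and 0.371 RPKM in luminal SOX10 high cells (3.73). Of the 15 contractile genes listed, 13 passed the filter and all 13 of those were called higher, with a median of 4.30 beside -0.21 for all genes tested. Under each alternative run 13 of the genes listed were called higher.

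Keratins and transcription factors of basal cells went with them. Keratin 5 (Krt5) was at 388 and 391 RPKM in basal cells, against 10.8 and 17.2 RPKM in luminal SOX10 high cells and 6.98 and 3.45 RPKM in luminal SOX10 low cells (4.74 ± 0.31, adjusted p = 0.000108). Krt14 was at 217 and 137 RPKM in basal cells, against 8.39 and 11.5 RPKM in luminal SOX10 high cells (4.0 ± 0.31, adjusted p = 0.000183). The p63 gene Trp63, the master regulator of stratified and basal epithelia, was at 42.9 and 55.4 RPKM on the basal and 1.54 and 2.28 RPKM on the luminal SOX10 high side (4.11 ± 0.20). For all 3 genes the fractions were far apart, and luminal SOX10 low cells were lower still than luminal SOX10 high cells. Id4, an inhibitor of helix-loop-helix factors found in basal mammary cells, was at 79.6 and 139 RPKM in basal cells, against 1.99 and 3.60 RPKM in luminal SOX10 high cells (4.84 ± 0.43). The homeobox gene Irx4 and P-cadherin (Cdh3) rose by 4.46 and 4.03. The ErbB ligand neuregulin 1 (Nrg1), which basal cells are known to send to luminal cells, was at 59.9 and 48.2 RPKM in basal cells, against 3.91 and 2.76 RPKM in luminal SOX10 high cells (3.67).

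Of 15 basal identity genes, all tested, 12 were higher and 0 lower, with a median of 4.03. The 3 that were not called are keratins 6a and 16 and Procr, a surface protein of a stem cell fraction. Krt6a, found in luminal progenitors and in hyperproliferative skin, was at 13.8 and 16.1 RPKM in basal cells, against 15.4 and 81.6 RPKM in luminal SOX10 high cells and 181 and 74.2 RPKM in luminal SOX10 low cells. Luminal SOX10 high library 1 lay within the range of the basal libraries and library 2 far above it (-1.21 ± 0.74, adjusted p = 0.227), and it was called lower without luminal SOX10 high library 1 (adjusted p = 0.0192). Krt16 was at 6.03 and 7.02 RPKM in basal cells, against 2.12 and 7.75 RPKM in luminal SOX10 high cells (0.52, adjusted p = 0.421), and was called higher without luminal SOX10 high library 2 (adjusted p = 0.0375); its difference was -0.22 without library 1 (adjusted p = 0.659).

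**Figure D2:**
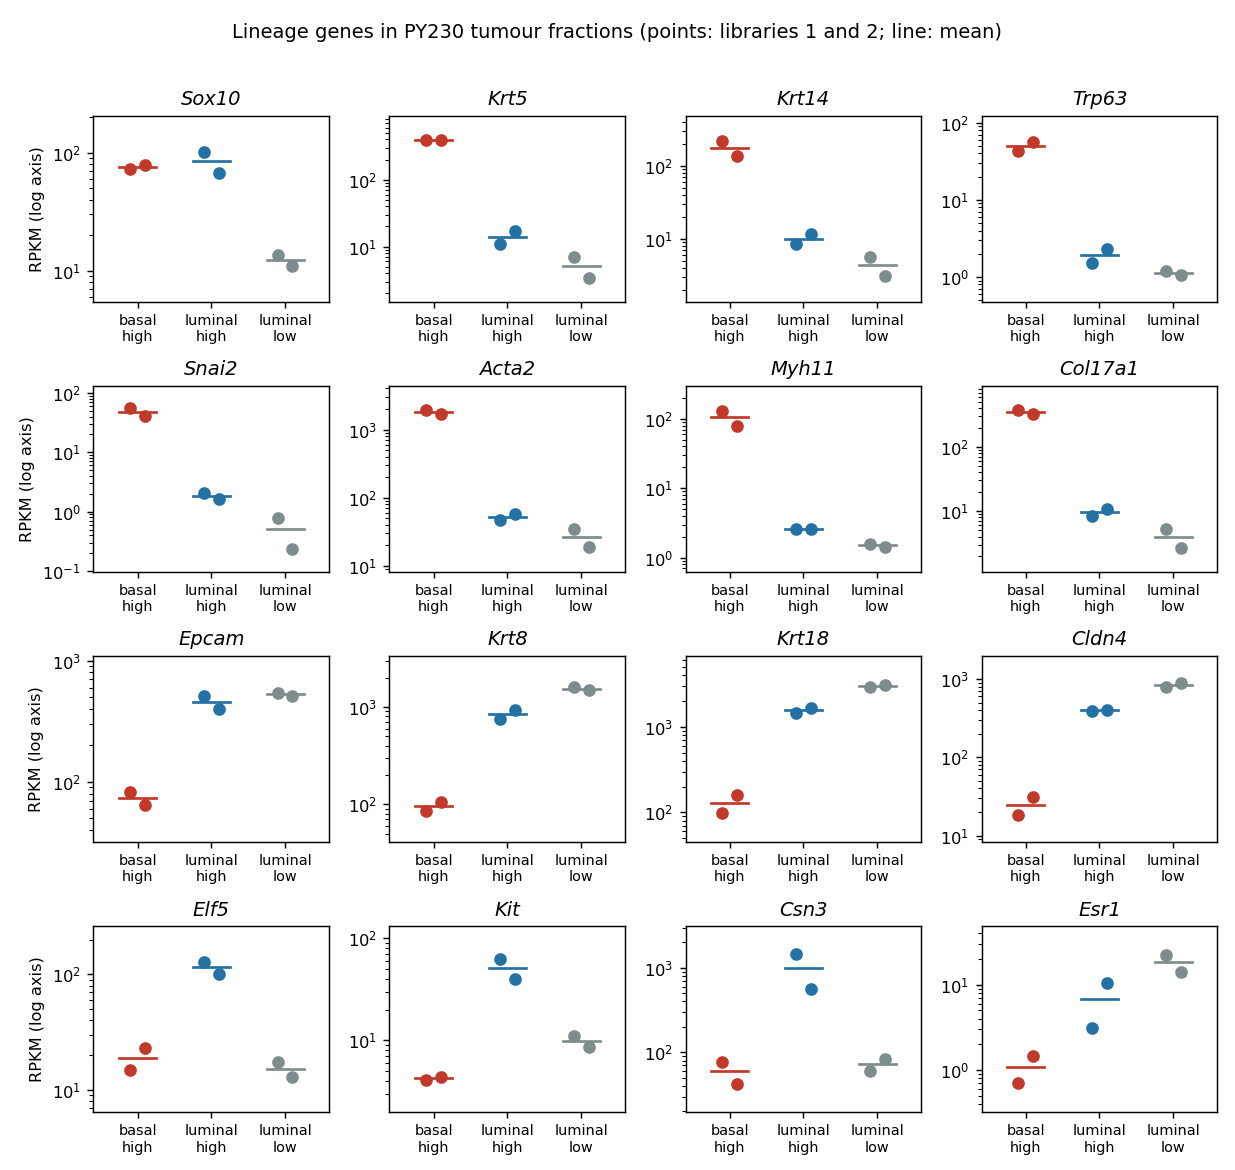
RPKM on a log axis for 16 lineage genes in basal SOX10 high (red), luminal SOX10 high (blue) and luminal SOX10 low (grey) cells; points are the 2 libraries of a fraction and lines their mean. Sox10 overlaps between the SOX10 high fractions, the genes of the second row and Krt5, Krt14 and Trp63 stand far higher in basal cells, and Epcam, Krt8, Krt18 and Cldn4 far lower, while Elf5, Kit and Csn3 peak in luminal SOX10 high cells.

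Among genes at a high level in basal cells, few came near 0 in luminal SOX10 high libraries. Some genes at a lower basal level did, such as Oxtr at 0.361 and 0.371 RPKM. Of 290 genes called higher that averaged at least 50 RPKM in basal cells, 32 averaged under 5% of the basal level in luminal SOX10 high cells, 7 under 3% and 0 under 2%. The lowest share was 2.47%, for Myh11. In the other direction, 462 genes called lower averaged at least 50 RPKM in luminal SOX10 high cells, and 2 of them averaged under 5% of that level in basal cells, the lowest being Tesc at 4.35%. These counts were chosen after the values were seen. Whether cells of the other fraction were present in the sorted samples was not tested.

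Genes of the basement membrane and of the hemidesmosome, which ties basal cells to it, were also higher in basal cells. The hemidesmosomal collagen XVII (Col17a1) was at 382 and 327 RPKM in basal cells, against 8.38 and 10.9 RPKM in luminal SOX10 high cells (5.07 ± 0.27, adjusted p = 9.38e-05), the next largest rise after Acta2. The collagen IV chain Col4a1 was at 677 and 655 RPKM on the basal and 25.2 and 36.7 RPKM on the luminal SOX10 high side (4.41), and its partner Col4a2 at 399 and 388 RPKM on the basal and 15.1 and 21.3 RPKM on the luminal SOX10 high side (4.38). Collagen VII (Col7a1), which anchors the membrane to the matrix beneath, was at 264 and 272 RPKM in basal cells, against 8.46 and 15.6 RPKM in luminal SOX10 high cells (4.42). The laminin chains Lama3 and Lamb3 rose by 4.24 and 2.08. Perlecan (Hspg2), a proteoglycan of the membrane, was at 37.2 and 37.1 RPKM in basal cells, against 2.30 and 4.33 RPKM in luminal SOX10 high cells (3.19).

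Of 22 genes listed for this structure, 21 passed the filter, 17 of them higher and 1 lower; their median was 2.10. The 1 that was lower is Lama5, the alpha 5 chain of laminin, at 56.4 and 57.7 RPKM in basal cells, against 109 and 119 RPKM in luminal SOX10 high cells (-0.99 ± 0.13, adjusted p = 0.00153). The laminin-binding integrin Itga6 was at 179 and 146 RPKM in basal cells, against 57.4 and 50.3 RPKM in luminal SOX10 high cells (1.57), and its hemidesmosomal partner Itgb4 at 164 and 148 RPKM on the basal and 59.1 and 48.7 RPKM on the luminal SOX10 high side (1.52). Surface proteins such as Itga6, Epcam and Cd24a are widely used to sort mammary lineages, and whether they were used here is not given.

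Among matrix genes outside the basement membrane, the matricellular genes Ctgf, Postn and Fbln2 rose, while collagen I and fibronectin did not pass the test. Connective tissue growth factor (Ctgf), a target of YAP and TEAD, was at 1843 and 1318 RPKM in basal cells, against 76.3 and 75.6 RPKM in luminal SOX10 high cells (4.34 ± 0.26). Periostin (Postn) was at 455 and 272 RPKM on the basal and 30.2 and 61.4 RPKM on the luminal SOX10 high side (3.0 ± 0.54), and the fibulin Fbln2 at 104 and 134 RPKM on the basal and 9.18 and 13.9 RPKM on the luminal SOX10 high side (3.28). In these 3 genes the basal libraries lay well above the luminal ones. The collagen I chain Col1a1 was at 48.2 and 83.7 RPKM in basal cells, against 27.6 and 55.9 RPKM in luminal SOX10 high cells (0.68 ± 0.45, adjusted p = 0.26), and fibronectin (Fn1) at 23.9 and 46.7 RPKM on the basal and 11.97 and 32.7 RPKM on the luminal SOX10 high side (0.72, adjusted p = 0.316). For both, library 2 was higher than library 1 in each fraction and the fractions overlapped. In all, 9 of 23 fibrillar and matricellular genes rose and 1 fell, and the median was 0.79.

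Fibroblast markers were higher in basal cells in part. The 12 listed summed to 84.6 and 106 RPKM in basal cells, against 27.1 and 46.9 RPKM in luminal SOX10 high cells. Of the 11 tested, 2 were higher and 9 were not called, beside 13.8% of all genes tested that were higher. The 2 that were higher are the proteoglycan decorin (Dcn) and collagen XIV (Col14a1). Dcn was at 33.2 and 36.1 RPKM in basal cells, against 5.999 and 11.4 RPKM in luminal SOX10 high cells (1.94). Col14a1 was at 19.2 and 9.27 RPKM on the basal and 1.26 and 2.10 RPKM on the luminal SOX10 high side (2.45). The part of such cells in the matrix results was not tested.

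Proteases that remodel matrix and their inhibitors were higher for 7 of 12 tested and lower for 0, beside 13.8% and 28.2% of all genes tested. The secreted protease Adamts1 was at 192 and 126 RPKM in basal cells, against 14.3 and 18.04 RPKM in luminal SOX10 high cells (3.20 ± 0.29). The metalloproteinase inhibitor Timp3 was at 141 and 74.3 RPKM on the basal and 11.9 and 13.2 RPKM on the luminal SOX10 high side (2.93), and the gelatinase Mmp2 at 26.3 and 20.5 RPKM on the basal and 5.62 and 8.02 RPKM on the luminal SOX10 high side (1.65). The membrane protease Mmp14 had 96.6 and 83.5 RPKM in basal cells, against 36.7 and 54.8 RPKM in luminal SOX10 high cells and 99.4 and 97.9 RPKM in luminal SOX10 low cells (0.98, adjusted p = 0.00892). The SOX10 low libraries lay above the basal ones, and without basal library 1 its call was lost (adjusted p = 0.0644).

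Mesenchymal genes were higher in part. Snai2 (Slug), a repressor of epithelial genes that normal basal mammary cells also use, was at 54.8 and 41.2 RPKM in basal cells, against 2.07 and 1.65 RPKM in luminal SOX10 high cells and 0.798 and 0.232 RPKM in luminal SOX10 low cells (4.09 ± 0.24, adjusted p = 9.38e-05). Vimentin (Vim), an intermediate filament of mesenchymal and basal cells, was at 196 and 193 RPKM in basal cells, against 29.7 and 54.7 RPKM in luminal SOX10 high cells (2.24 ± 0.41, adjusted p = 0.00576). N-cadherin (Cdh2) was at 13.2 and 11.2 RPKM on the basal and 0.401 and 0.437 RPKM on the luminal SOX10 high side (3.22), and the transcription factor Twist1 at 27.4 and 30.5 RPKM on the basal and 11.2 and 6.09 RPKM on the luminal SOX10 high side (1.69). The fractions did not overlap for any of these 4 genes, while the basal libraries lay above for 23.1% of all genes tested. Snai1, the closest relative of Snai2, went the other way, at 4.96 and 3.20 RPKM in basal cells, against 10.6 and 6.73 RPKM in luminal SOX10 high cells (-0.92, adjusted p = 0.0268). That call was lost under both rescalings, without the filter, and without basal library 2 (adjusted p = 0.142) or luminal SOX10 high library 1 (adjusted p = 0.113). Zeb1, a repressor of E-cadherin, did not pass the filter, at 0.868 and 0.884 RPKM in basal cells, against 0.177 and 0.466 RPKM in luminal SOX10 high cells. Of 16 mesenchymal genes listed 12 were tested, 8 of them higher and 1 lower, and their median was 1.79.

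The genes that make a luminal epithelium were lower in basal cells without exception in the list. Keratin 18 (Krt18) was at 97.1 and 161 RPKM in basal cells, against 1440.2 and 1667 RPKM in luminal SOX10 high cells and 2920.4 and 3125 RPKM in luminal SOX10 low cells (-3.62 ± 0.27, adjusted p = 0.000176). Its partner Krt8 was at 85.9 and 105 RPKM in basal cells, against 752 and 928 RPKM in luminal SOX10 high cells (-3.12). The adhesion molecule Epcam was at 81.9 and 64.2 RPKM in basal cells, against 507 and 401 RPKM in luminal SOX10 high cells and 542 and 511 RPKM in luminal SOX10 low cells (-2.62 ± 0.19). The basal libraries were the lowest of the 6 for all 3 genes. Of the 20 genes listed, the claudins Cldn4, Cldn3 and Cldn7 of tight junctions had the largest falls. Cldn4 was at 18.3 and 31.3 RPKM in basal cells, against 393 and 403 RPKM in luminal SOX10 high cells (-4.0 ± 0.25, adjusted p = 9.99e-05), Cldn3 at 15.1 and 17.6 RPKM on the basal and 337 and 221 RPKM on the luminal SOX10 high side (-3.99), and Cldn7 at 6.19 and 9.54 RPKM on the basal and 139 and 110.5 RPKM on the luminal SOX10 high side (-3.84). Occludin (Ocln) was at 0.983 and 1.10 RPKM in basal cells, against 17.2 and 16.004 RPKM in luminal SOX10 high cells (-3.11).

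E-cadherin (Cdh1), which basal cells also carry, fell less, at 77.3 and 63.6 RPKM in basal cells, against 148 and 164 RPKM in luminal SOX10 high cells (-1.14 ± 0.16, adjusted p = 0.00183). The surface antigen Cd24a fell by the smallest amount of the list, at 145 and 134 RPKM on the basal and 280.0 and 285 RPKM on the luminal SOX10 high side (-1.02). All 20 luminal epithelial genes were tested and all 20 were lower, with a median of -2.90, and this count was 20 in each alternative run. Cldn1 differed from the other claudins in luminal SOX10 low cells, at 3.08 and 2.76 RPKM, beside 5.63 and 6.37 RPKM in basal cells and 42.4 and 28.2 RPKM in luminal SOX10 high cells.

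The E-box CACCTG is the sequence that repressors of the SNAI and ZEB families are known to bind in promoters of epithelial genes. Promoter windows from RefSeq (build GRCm38.p6, 250 bases before to 50 after a gene's start), matched by symbol for 9800 of the 13136 genes tested, were searched for it on both strands. Of 20 windows that belong to 15 of the luminal epithelial genes, 16 held it, which is 80.0%. The share was 20.2% of all 32851 windows, 18.6% of those of genes tested and 22.9% of those of genes called lower. Among windows of genes lower by at least 2 on the log2 scale it was 37.5%, and among those of genes higher by at least 2 it was 19.1%. A match describes the letters of the window and not a bound site. The windows of 4 of the genes above are shown with each E-box in capitals, as CACCTG or as CAGGTG where it lies on the other strand, as examples of tight junction, adhesion and keratin genes that fell, chosen with their values and motifs known. They lie at chr5:134946885-134947184 on the minus strand for Cldn4, chr11:69965171-69965470 on the plus strand for Cldn7, chr17:87635729-87636028 on the plus strand for Epcam and chr15:102027966-102028265 on the plus strand for Krt18.
Cldn4: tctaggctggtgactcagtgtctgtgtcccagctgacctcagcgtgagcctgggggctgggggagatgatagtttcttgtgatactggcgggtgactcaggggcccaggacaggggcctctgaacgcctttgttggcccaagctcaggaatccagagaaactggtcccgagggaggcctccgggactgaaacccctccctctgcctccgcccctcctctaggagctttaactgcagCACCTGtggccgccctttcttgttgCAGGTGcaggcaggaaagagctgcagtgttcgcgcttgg
Cldn7: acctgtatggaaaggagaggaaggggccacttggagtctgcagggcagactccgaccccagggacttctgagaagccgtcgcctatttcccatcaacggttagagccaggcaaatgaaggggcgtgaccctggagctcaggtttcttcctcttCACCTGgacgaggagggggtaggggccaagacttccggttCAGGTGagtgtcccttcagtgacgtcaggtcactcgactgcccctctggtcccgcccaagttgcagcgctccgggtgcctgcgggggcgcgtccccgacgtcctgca
Epcam: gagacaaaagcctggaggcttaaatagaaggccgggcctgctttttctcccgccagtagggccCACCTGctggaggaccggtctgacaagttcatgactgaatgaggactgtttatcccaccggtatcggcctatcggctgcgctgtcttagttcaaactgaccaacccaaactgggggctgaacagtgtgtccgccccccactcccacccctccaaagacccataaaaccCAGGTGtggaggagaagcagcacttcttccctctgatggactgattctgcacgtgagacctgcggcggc
Krt18: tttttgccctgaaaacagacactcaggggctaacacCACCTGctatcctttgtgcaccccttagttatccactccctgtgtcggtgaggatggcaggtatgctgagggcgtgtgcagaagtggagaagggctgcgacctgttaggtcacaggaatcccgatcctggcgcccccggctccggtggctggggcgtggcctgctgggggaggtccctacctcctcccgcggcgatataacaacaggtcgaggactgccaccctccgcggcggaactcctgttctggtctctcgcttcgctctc

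The windows of the contractile genes were searched on both strands for the CArG box, to which serum response factor binds, and for the TEAD motif CATTCC. The CArG box was searched as CC, 6 letters A or T, then GG, so a site with 1 other letter was not counted. A CArG box of this form was in 1 of 11 windows, that of Myl9, beside 1.63% of all windows and 1.33% of those of genes tested. It was in 4.71% of windows of genes higher by at least 2 and in 1.54% of those of genes lower by at least 2. The Acta2 window holds ccctatatgg and ccttgtttgg, each 1 letter off this form. The TEAD motif was in 6 of 11, or 54.5%, beside 14.7% of all windows and 12.4% of those of genes tested. Among windows of genes higher by at least 2 its share was 20.2%, and among those of genes lower by at least 2 it was 17.5%. For the SOX motif, searched as ACAAAG or ACAATG, the share was 20.9% among genes called higher, 20.3% among genes called lower, 19.9% among genes tested and 28.6% of all windows. The AP-1 motif TGANTCA was in 7.06% of windows of genes called higher and 6.08% of those of genes called lower, beside 5.35% of those of genes tested. The Myl9 window (chr2:156775214-156775513, plus strand) is shown with its CArG box in capitals, and the Acta2 window (chr19:34255324-34255623, minus strand) with its TEAD motif in capitals, as GGAATG on the strand printed.
Myl9: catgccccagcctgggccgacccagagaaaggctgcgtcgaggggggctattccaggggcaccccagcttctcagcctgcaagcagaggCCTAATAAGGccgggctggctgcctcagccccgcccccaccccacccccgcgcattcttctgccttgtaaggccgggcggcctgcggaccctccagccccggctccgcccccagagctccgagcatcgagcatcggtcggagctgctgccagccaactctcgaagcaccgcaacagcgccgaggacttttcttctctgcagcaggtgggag
Acta2: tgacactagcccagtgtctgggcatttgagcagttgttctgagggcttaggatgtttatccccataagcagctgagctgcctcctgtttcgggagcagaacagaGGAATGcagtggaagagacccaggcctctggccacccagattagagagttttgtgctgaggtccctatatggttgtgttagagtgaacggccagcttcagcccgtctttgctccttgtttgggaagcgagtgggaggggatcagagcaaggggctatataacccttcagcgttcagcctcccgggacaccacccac

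Transcription and splicing factors of epithelia were lower as well. The Ets factor Ehf was at 8.96 and 11.2 RPKM in basal cells, against 83.5 and 68.02 RPKM in luminal SOX10 high cells (-2.80 ± 0.16), and its relative Elf3 at 10.1 and 11.6 RPKM on the basal and 70.1 and 83.02 RPKM on the luminal SOX10 high side (-2.71). Spdef, a further Ets factor, was at 0.840 and 0.848 RPKM in basal cells, against 12.3 and 12.8 RPKM in luminal SOX10 high cells (-2.88). The grainyhead factor Grhl1 and the splicing factor Esrp2 differed by -2.57 and -2.77. Grhl2, a relative of Grhl1, was at 15.2 and 15.1 RPKM in basal cells, against 19.1 and 20.2 RPKM in luminal SOX10 high cells (-0.35, adjusted p = 0.0489), a call lost under both rescalings and without basal library 1 or 2 (adjusted p = 0.138 and 0.135) or luminal SOX10 high library 1 or 2 (adjusted p = 0.0562 and 0.0915). Of 14 such regulators 10 were lower and 1 higher, with a median of -1.92.

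Several genes of luminal progenitors had their highest levels in luminal SOX10 high cells, a description for which no test against SOX10 low cells was run. Elf5, the Ets factor of the secretory lineage, was at 14.9 and 23.2 RPKM in basal cells, against 129 and 101 RPKM in luminal SOX10 high cells and 17.5 and 13.1 RPKM in luminal SOX10 low cells (-2.55 ± 0.25, adjusted p = 0.000467). The receptor Kit was at 4.14 and 4.41 RPKM in basal cells, against 63.3 and 39.6 RPKM in luminal SOX10 high cells and 11.1 and 8.71 RPKM in luminal SOX10 low cells (-3.28 ± 0.23, adjusted p = 0.000142). The casein Csn3 was at 76.3 and 42.6 RPKM in basal cells, against 1443 and 567 RPKM in luminal SOX10 high cells and 60.3 and 84.04 RPKM in luminal SOX10 low cells (-3.96 ± 0.47). For these genes the luminal SOX10 high libraries were the highest of the 6. Alpha-lactalbumin (Lalba) was at 4.51 and 2.75 RPKM in basal cells, against 118 and 33.8 RPKM in luminal SOX10 high cells (-3.82 ± 0.58), and Plet1, a surface protein of luminal progenitors, at 62.03 and 32.8 RPKM on the basal and 679 and 323 RPKM on the luminal SOX10 high side (-3.35). In both, luminal SOX10 high library 1 was above library 2. Wfdc18, of the whey acidic protein family, was at 231 and 293 RPKM in basal cells, against 1467 and 1257 RPKM in luminal SOX10 high cells and 141 and 143 RPKM in luminal SOX10 low cells (-2.38). Not all genes of the list peaked there. Aldh1a3 was at 0.833 and 2.20 RPKM in basal cells, against 3.26 and 7.09 RPKM in luminal SOX10 high cells. It was highest in luminal SOX10 low cells, at 12.9 and 9.93 RPKM. Its call (-1.28 ± 0.37, adjusted p = 0.0332) was lost with median-of-ratios factors and without the filter. It was also lost without basal library 1 (-0.87) or luminal SOX10 high library 2 (-0.81).

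Of 15 progenitor genes listed 14 were tested, with 11 lower and 2 higher and a median of -2.56. The 2 that were higher are Mfge8, which codes for the milk fat globule protein lactadherin, and Itga2, an integrin for collagen. Mfge8 was at 800.0 and 575 RPKM in basal cells, against 135 and 149 RPKM in luminal SOX10 high cells and 156 and 121 RPKM in luminal SOX10 low cells (2.25 ± 0.22, adjusted p = 0.000448). Itga2 was at 9.71 and 5.65 RPKM in basal cells, against 1.82 and 1.97 RPKM in luminal SOX10 high cells (1.54). The Notch target Hey1 overlapped between the fractions, at 34.5 and 38.6 RPKM in basal cells, against 54.7 and 35.3 RPKM in luminal SOX10 high cells and 6.49 and 6.33 RPKM in luminal SOX10 low cells (-0.26, adjusted p = 0.347). Its difference was 0.047 without luminal SOX10 high library 1 (adjusted p = 0.807), and it was called lower without library 2 (adjusted p = 0.0219). Genes of milk and fat secretion were lower for 7 of 10 tested and higher for 0, among them the whey acidic protein Wap, at 0.411 and 0.225 RPKM in basal cells, against 4.91 and 4.62 RPKM in luminal SOX10 high cells (-2.13). The fatty acid synthase Fasn was at 64.1 and 64.7 RPKM on the basal and 63.96 and 60.5 RPKM on the luminal SOX10 high side (0.05, adjusted p = 0.757).

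Hormone-sensing genes mark mature luminal cells, and those named here were highest in luminal SOX10 low cells and lowest in basal cells. The prolactin receptor Prlr was at 7.92 and 18.2 RPKM in basal cells, against 56.7 and 139.6 RPKM in luminal SOX10 high cells and 215 and 249 RPKM in luminal SOX10 low cells (-2.78 ± 0.48, adjusted p = 0.00462). The co-activator Cited1 was at 26.01 and 41.5 RPKM in basal cells, against 243 and 374 RPKM in luminal SOX10 high cells and 889 and 1251 RPKM in luminal SOX10 low cells (-3.16 ± 0.31). The luminal transcription factor Gata3 was at 21.5 and 22.97 RPKM in basal cells, against 52.3 and 56.4 RPKM in luminal SOX10 high cells (-1.25). In all 3 genes the fractions did not overlap, while the basal libraries lay below for 49.1% of all genes tested. For Prlr and Cited1 luminal SOX10 high library 2 was above library 1. The oestrogen receptor Esr1 was at 0.697 and 1.48 RPKM in basal cells, against 3.08 and 10.6 RPKM in luminal SOX10 high cells and 22.5 and 14.1 RPKM in luminal SOX10 low cells (-1.74 ± 0.49, adjusted p = 0.0285). Without luminal SOX10 high library 2 its difference was -0.99 (adjusted p = 0.0739), and the call was also lost without basal library 1 or 2 (adjusted p = 0.155 and 0.0738). Of 14 hormone-sensing genes 11 were tested, with 10 lower and 0 higher and a median of -1.74. Without basal library 1, 4 were lower, and without luminal SOX10 high library 2, 8 were.

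**Figure D3:**
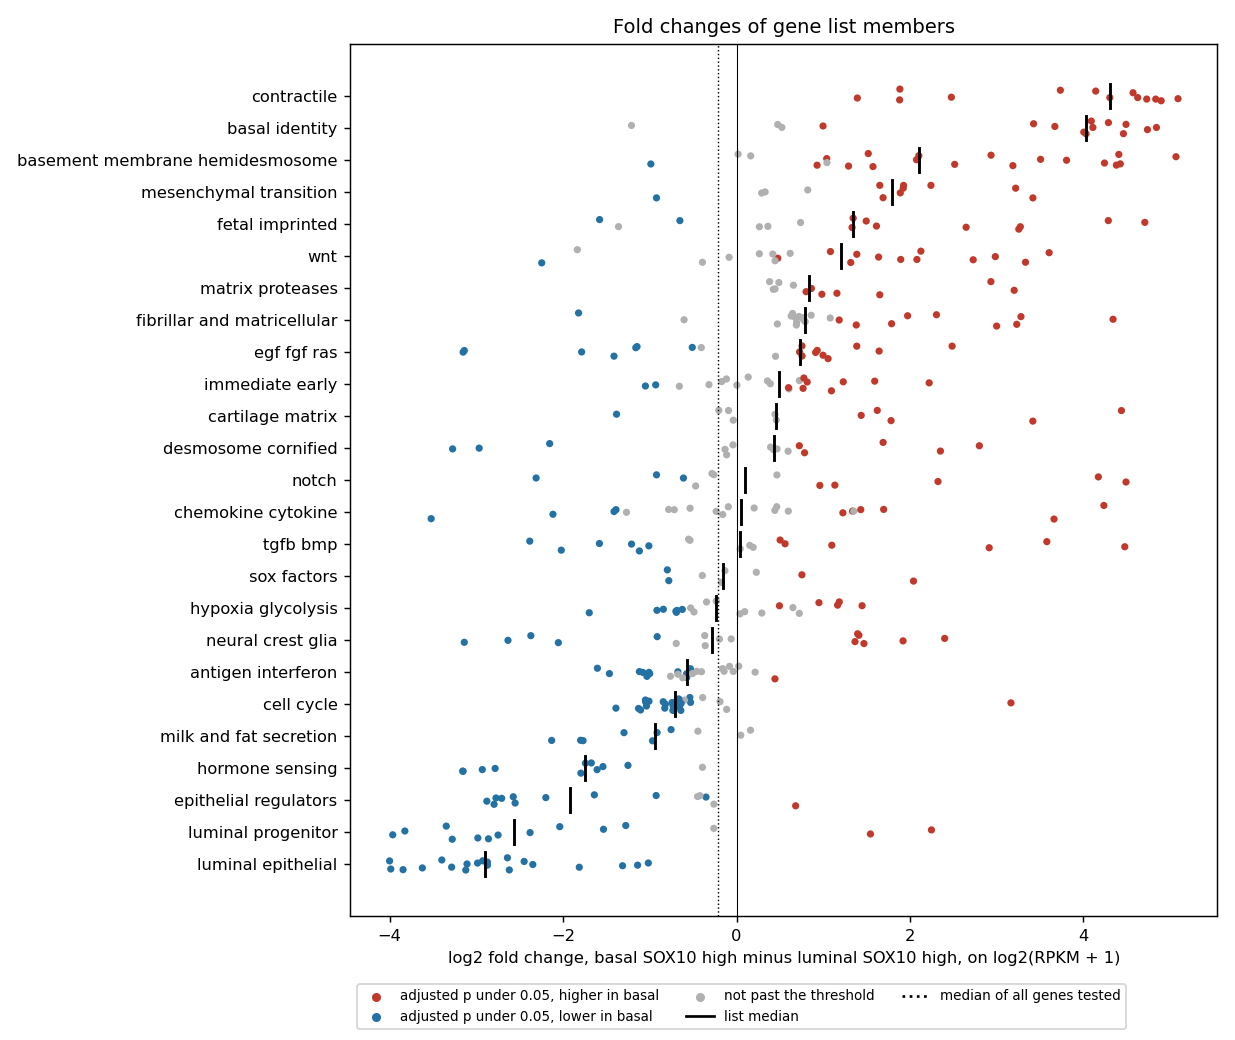
Log2 fold change, basal minus luminal SOX10 high, of each tested member of 25 gene lists, in rows ordered by list median (black bars); red points were called higher in basal cells, blue points lower, and grey points did not pass the threshold. The dotted line is the median of all genes tested, -0.21; contractile genes lie highest, with a median of 4.30, and luminal epithelial genes lowest, with a median of -2.90.

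The Notch ligands named here were higher in basal cells, while the receptor Notch3 was lower. Jag2 was at 64.5 and 80.4 RPKM in basal cells, against 1.79 and 2.78 RPKM in luminal SOX10 high cells (4.49 ± 0.20, adjusted p = 7.71e-05), and Dll1 at 55.2 and 44.2 RPKM on the basal and 2.20 and 1.45 RPKM on the luminal SOX10 high side (4.17 ± 0.20). The ligand Jag1 was at 53.5 and 39.7 RPKM in basal cells, against 5.93 and 11.8 RPKM in luminal SOX10 high cells and 20.2 and 19.8 RPKM in luminal SOX10 low cells (2.32). Notch3 was at 3.42 and 5.74 RPKM in basal cells, against 24.1 and 28.3 RPKM in luminal SOX10 high cells (-2.31 ± 0.22, adjusted p = 0.000422). Notch1 was at 34.2 and 36.1 RPKM on the basal and 30.5 and 20.7 RPKM on the luminal SOX10 high side (0.47, adjusted p = 0.13), and it passed the threshold under both rescalings and without luminal SOX10 high library 1 (adjusted p = 0.0386). The target Hes1 was at 41.1 and 25.5 RPKM in basal cells, against 69.5 and 55.9 RPKM in luminal SOX10 high cells (-0.92, adjusted p = 0.0193), a call lost with median-of-ratios factors and without basal library 2 (adjusted p = 0.0744) or luminal SOX10 high library 1 (adjusted p = 0.0868). Of 12 pathway genes tested 5 were higher and 3 lower, beside 13.8% and 28.2% of all genes tested. With median-of-ratios factors 6 were higher and 1 lower. Without basal library 2 the counts were 3 higher and 1 lower.

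Wnt genes leaned towards basal cells. The ligand Wnt6 was at 17.5 and 18.7 RPKM in basal cells, against 0.496 and 0.644 RPKM in luminal SOX10 high cells (3.60 ± 0.17), and Wnt10a at 9.75 and 7.63 RPKM on the basal and 0.116 and 0.328 RPKM on the luminal SOX10 high side (2.98 ± 0.19). The ligand Wnt7b went the other way, at 1.56 and 2.19 RPKM in basal cells, against 8.77 and 17.8 RPKM in luminal SOX10 high cells and 38.7 and 40.4 RPKM in luminal SOX10 low cells (-2.25). None of these 3 ligands overlapped between the fractions compared. Over all genes tested the basal libraries lay above for 23.1% and below for 49.1%. The nuclear effector Tcf7 was at 29.1 and 29.6 RPKM in basal cells, against 6.42 and 5.53 RPKM in luminal SOX10 high cells (2.13), and the R-spondin receptor Lgr6 at 20.2 and 24.8 RPKM on the basal and 8.26 and 8.53 RPKM on the luminal SOX10 high side (1.32). Secreted modulators of the pathway were higher too, with Dkk3 at 23.9 and 20.3 RPKM in basal cells, against 1.24 and 1.34 RPKM in luminal SOX10 high cells (3.33), and Sfrp1 at 33.3 and 27.2 RPKM on the basal and 3.65 and 3.75 RPKM on the luminal SOX10 high side (2.73). In all, 12 of 20 Wnt genes tested were higher and 1 lower, with a median of 1.20, and 15 were higher under both rescalings. Without luminal SOX10 high library 1, 3 were lower.

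Within the TGF-beta and BMP family, 6 of 17 genes tested were higher and 6 lower, beside 13.8% and 28.2% of all genes tested. The share that was lower lay near that of all genes. The activin antagonist follistatin (Fst) was at 97.4 and 50.2 RPKM in basal cells, against 2.23 and 2.15 RPKM in luminal SOX10 high cells (4.48 ± 0.34). The ligand Bmp7 was at 36.5 and 40.8 RPKM on the basal and 2.38 and 2.25 RPKM on the luminal SOX10 high side (3.58), and the co-receptor betaglycan (Tgfbr3) at 26.6 and 28.04 RPKM on the basal and 3.16 and 2.40 RPKM on the luminal SOX10 high side (2.91). Ligands of the TGF-beta and activin type were lower. Inhbb, an activin and inhibin subunit, was at 3.71 and 6.13 RPKM in basal cells, against 27.5 and 31.1 RPKM in luminal SOX10 high cells (-2.38), Tgfb3 at 12.2 and 11.03 RPKM on the basal and 67.01 and 37.5 RPKM on the luminal SOX10 high side (-2.02), and Tgfb1 at 4.22 and 3.98 RPKM on the basal and 12.9 and 15.8 RPKM on the luminal SOX10 high side (-1.58). With median-of-ratios factors 7 genes of the family were higher and 4 lower, and without basal library 1, 3 were lower.

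ErbB and FGF signalling genes split by receptor. Egfr was at 18.9 and 15.5 RPKM in basal cells, against 9.24 and 7.06 RPKM in luminal SOX10 high cells and 1.04 and 0.964 RPKM in luminal SOX10 low cells (1.0 ± 0.18, adjusted p = 0.00536). Erbb3, the neuregulin receptor, was at 3.25 and 3.99 RPKM in basal cells, against 33.999 and 45.9 RPKM in luminal SOX10 high cells and 52.4 and 62.3 RPKM in luminal SOX10 low cells (-3.14 ± 0.19, adjusted p = 9.38e-05). Erbb2 was at 9.39 and 10.3 RPKM in basal cells, against 25.1 and 30.8 RPKM in luminal SOX10 high cells (-1.41). Nrg1 and Erbb3, a ligand and its receptor, thus differed in opposite directions. The oestrogen-induced ligand amphiregulin (Areg) was at 7.71 and 21.5 RPKM in basal cells, against 64.03 and 237 RPKM in luminal SOX10 high cells (-3.15 ± 0.70, adjusted p = 0.0122; adjusted p = 0.0863 without basal library 1). The growth factor Fgf1 was at 49.3 and 37.3 RPKM in basal cells, against 7.96 and 5.86 RPKM in luminal SOX10 high cells (2.49). Of the feedback genes of the ERK pathway named here, Spry1 and Etv5 were higher (1.64 and 1.39) and the phosphatase Dusp4 was lower (-1.79). Of 19 genes tested 10 were higher and 7 lower, and without basal library 1 the counts were 6 and 4.

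The genes Il17b, Igfbp2, Ntrk3 and Moxd1 were among the 12 largest rises. The cytokine Il17b was at 295 and 256 RPKM in basal cells, against 8.94 and 8.34 RPKM in luminal SOX10 high cells and 3.93 and 4.65 RPKM in luminal SOX10 low cells (4.84 ± 0.14, adjusted p = 6.55e-05). Igfbp2, a binding protein for insulin-like growth factors, was at 1839.5 and 1504 RPKM in basal cells, against 67.9 and 57.9 RPKM in luminal SOX10 high cells (4.71 ± 0.19), and Igfbp3 at 348 and 261 RPKM on the basal and 12.9 and 16.2 RPKM on the luminal SOX10 high side (4.29). Igfbp2 stood close to Acta2 in level in basal cells. The growth factor Igf2 itself, an imprinted fetal gene, was at 16.1 and 5.57 RPKM in basal cells, against 0.482 and 0.926 RPKM in luminal SOX10 high cells (2.65). The list of fetal and imprinted growth genes also holds receptors and binding proteins of insulin-like growth factors. Of its 15 genes tested 9 rose, with Igfbp2, Igfbp3 and Igfbp4 among them, and 2 fell, and the median was 1.34. The neurotrophin receptor Ntrk3 was at 148 and 209 RPKM in basal cells, against 4.17 and 7.42 RPKM in luminal SOX10 high cells (4.75 ± 0.30), and the copper-dependent monooxygenase Moxd1, a relative of dopamine beta-hydroxylase, at 195 and 175 RPKM on the basal and 5.45 and 5.55 RPKM on the luminal SOX10 high side (4.84).

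Of 22 chemokines and cytokines tested, 6 were higher and 4 lower, beside 13.8% and 28.2% of all genes tested. Cxcl12, a chemokine that guides stem and immune cells, was at 83.2 and 94.5 RPKM in basal cells, against 3.07 and 4.58 RPKM in luminal SOX10 high cells (4.24 ± 0.19), and Cxcl14 at 136 and 129 RPKM on the basal and 8.28 and 10.996 RPKM on the luminal SOX10 high side (3.66). Tumour necrosis factor (Tnf) was at 4.44 and 4.83 RPKM in basal cells, against 88.9 and 45.5 RPKM in luminal SOX10 high cells and 32.8 and 35.5 RPKM in luminal SOX10 low cells (-3.52 ± 0.29, adjusted p = 0.000235). The neutrophil chemokine Cxcl1 rose by 1.23, at 162 and 155 RPKM in basal cells, against 64.2 and 70.4 RPKM in luminal SOX10 high cells. The cytokine Lif fell to 13.3 and 10.4 RPKM in basal cells, against 38.1 and 28.4 RPKM in luminal SOX10 high cells (-1.41).

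With Sox10 at a like level, its relatives and the genes of neural crest and cartilage, 2 programmes in which SOX factors act, were examined. Sox2 was at 3.78 and 6.63 RPKM in basal cells, against 0.508 and 0.428 RPKM in luminal SOX10 high cells (2.04 ± 0.24, adjusted p = 0.00108), and Sox8, which with Sox9 is the closest relative of Sox10, at 7.31 and 6.996 RPKM on the basal and 4.37 and 3.35 RPKM on the luminal SOX10 high side (0.75, adjusted p = 0.0121; adjusted p = 0.062 without basal library 1). Sox9 was at 116 and 66.9 RPKM in basal cells, against 165 and 141 RPKM in luminal SOX10 high cells and 131 and 135 RPKM in luminal SOX10 low cells (-0.78, adjusted p = 0.0468). Its call was lost under both rescalings, without the filter, and without basal library 2 (adjusted p = 0.168) or luminal SOX10 high library 1 or 2 (adjusted p = 0.163 and 0.0743). Of 8 SOX genes tested 2 were higher and 2 lower, beside 13.8% and 28.2% of all genes tested. The count that was lower was 1 under both rescalings and without basal library 1 or luminal SOX10 high library 1, and 0 without basal library 2, while 1 was higher without basal library 1.

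Collagens of cartilage were present in both SOX10 high fractions. Col9a1 was at 55.98 and 58.2 RPKM in basal cells, against 58.9 and 28.8 RPKM in luminal SOX10 high cells and 2.65 and 2.46 RPKM in luminal SOX10 low cells (0.46, adjusted p = 0.257), and Col11a1 at 55.5 and 42.9 RPKM in basal cells, against 41.01 and 30.9 RPKM in luminal SOX10 high cells and 3.05 and 3.12 RPKM in luminal SOX10 low cells (0.44, adjusted p = 0.098). Both genes were far lower in the SOX10 low libraries. Without luminal SOX10 high library 1 both passed the threshold (adjusted p = 0.0049 and 0.0467), and without library 2 the difference of Col9a1 was -0.045 (adjusted p = 0.792). Col11a1 also passed under both rescalings. Col9a3 was at 198 and 176 RPKM in basal cells, against 72.8 and 39.4 RPKM in luminal SOX10 high cells (1.78). The matrilins differed most: Matn2 was at 106 and 136 RPKM in basal cells, against 4.34 and 4.86 RPKM in luminal SOX10 high cells (4.44 ± 0.19), and Matn4 at 18.3 and 12.3 RPKM on the basal and 0.383 and 0.637 RPKM on the luminal SOX10 high side (3.42). Chondromodulin (Cnmd) went the other way, at 14.8 and 10.9 RPKM in basal cells, against 27.3 and 44.2 RPKM in luminal SOX10 high cells and 5.57 and 5.09 RPKM in luminal SOX10 low cells (-1.38 ± 0.25). Of 11 cartilage genes tested, 5 rose and 1 fell.

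Neural crest and glial genes were higher for 6 of 16 tested and lower for 5, beside 13.8% and 28.2% of all genes tested, so that the share that was lower lay near that of all genes. The myelin enzyme Cnp was at 50.5 and 47.4 RPKM in basal cells, against 8.26 and 8.66 RPKM in luminal SOX10 high cells (2.40 ± 0.12). The early growth response factor Egr2, which acts with SOX10 in Schwann cells and is counted with the immediate early genes and not among these 16, was at 20.9 and 16.8 RPKM in basal cells, against 3.46 and 3.02 RPKM in luminal SOX10 high cells (2.22). Lower were the crest factor Tfap2b, at 0.758 and 2.10 RPKM in basal cells, against 6.995 and 17.3 RPKM in luminal SOX10 high cells and 35.9 and 38.8 RPKM in luminal SOX10 low cells (-2.37), the homeobox gene Msx2, at 0.565 and 1.12 RPKM in basal cells, against 8.12 and 13.04 RPKM in luminal SOX10 high cells (-2.64), and myelin basic protein (Mbp), at 1.20 and 1.08 RPKM in basal cells, against 7.83 and 7.96 RPKM in luminal SOX10 high cells (-2.05). Erbb3, also on this list, fell as given above.

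Of 15 desmosome genes tested, 5 were higher and 3 lower, beside 13.8% and 28.2% of all genes tested. With median-of-ratios factors 7 were higher, and without basal library 1 fewer were. Desmocollin 3 (Dsc3) of basal epithelia was at 7.40 and 14.6 RPKM in basal cells, against 0.387 and 0.953 RPKM in luminal SOX10 high cells (2.80), and the p63 target Perp at 321 and 352 RPKM on the basal and 67.5 and 62.9 RPKM on the luminal SOX10 high side (2.35). Plakophilin 2 (Pkp2) was at 1.78 and 2.19 RPKM in basal cells, against 21.8 and 22.8 RPKM in luminal SOX10 high cells (-2.97 ± 0.13). The cornified envelope gene Sprr1a was at 6.11 and 18.3 RPKM in basal cells, against 60.4 and 208 RPKM in luminal SOX10 high cells and 458 and 280.2 RPKM in luminal SOX10 low cells (-3.27, adjusted p = 0.0087; adjusted p = 0.0628 without basal library 1).

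Cell cycle genes were lower in basal cells by small amounts. Of 26 tested, 21 were lower and 1 higher, with a median of -0.71 beside -0.21 for all genes. Inhibitors of the cycle are on the list and among the 21, so the count does not cover proliferation genes alone. With median-of-ratios factors 12 were lower and with quantile normalization 17, and the count was 10 without basal library 1 and 12 without luminal SOX10 high library 1. The replication helicase subunit Mcm6 was at 23.96 and 28.4 RPKM in basal cells, against 73.1 and 67.1 RPKM in luminal SOX10 high cells (-1.39 ± 0.14), and the mitotic kinase Aurka at 5.05 and 6.98 RPKM on the basal and 13.2 and 15.3 RPKM on the luminal SOX10 high side (-1.13). Mki67 was at 24.1 and 24.9 RPKM in basal cells, against 38.1 and 33.7 RPKM in luminal SOX10 high cells (-0.53, adjusted p = 0.0291). That call was lost under both rescalings and without basal library 1 or 2 or luminal SOX10 high library 1 (adjusted p = 0.12, 0.0954 and 0.0947). The cyclins Ccnd1 and Ccnd2 differed in direction. Ccnd1 was at 61.6 and 66.2 RPKM in basal cells, against 138 and 127 RPKM in luminal SOX10 high cells (-1.04 ± 0.14), and Ccnd2 at 14.4 and 15.1 RPKM on the basal and 0.661 and 0.859 RPKM on the luminal SOX10 high side (3.16 ± 0.17).

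Among 25 genes of the interferon response and of antigen presentation, 12 fell and 1 rose, beside 28.2% and 13.8% of all genes tested. With median-of-ratios factors 7 fell, beside 17.8% of all genes tested. The immunoproteasome subunits led, with Psmb8 at 64.01 and 52.99 RPKM in basal cells, against 176 and 182 RPKM in luminal SOX10 high cells and 267 and 261 RPKM in luminal SOX10 low cells (-1.60 ± 0.14), and Psmb9 at 27.4 and 31.6 RPKM in basal cells, against 79.3 and 87.05 RPKM in luminal SOX10 high cells (-1.47). Beta-2 microglobulin (B2m) was at 1659 and 1687 RPKM in basal cells, against 1453 and 1431 RPKM in luminal SOX10 high cells (0.21, adjusted p = 0.444). Without basal library 2 the count was 6 lower.

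Immediate early genes, which cell dissociation can induce, were higher for 8 of 20 and lower for 2. Without basal library 1, 5 were higher, and without luminal SOX10 high library 2, 4 were lower. Egr1 was at 569 and 450.5 RPKM in basal cells, against 241 and 192 RPKM in luminal SOX10 high cells (1.23), while Fos was at 776 and 786 RPKM on the basal and 774 and 785 RPKM on the luminal SOX10 high side (0.0037, adjusted p = 0.989). Hypoxia and glycolysis genes went both ways, with 5 of 21 higher and 7 lower, beside 13.8% and 28.2% of all genes tested, and with median-of-ratios factors 6 higher and 4 lower. The counts were 3 higher and 2 lower without basal library 1, and 2 higher and 4 lower without basal library 2, while 3 were higher without luminal SOX10 high library 2. The angiogenic factor Vegfa was at 192 and 175 RPKM in basal cells, against 72.2 and 91.2 RPKM in luminal SOX10 high cells (1.17 ± 0.16), and hexokinase 1 (Hk1) at 39.8 and 31.6 RPKM on the basal and 145 and 95.02 RPKM on the luminal SOX10 high side (-1.70 ± 0.22).

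Markers of other cell types had low summed levels beside the lineage genes. The 16 immune markers summed to 76.4 and 108 RPKM in basal cells, against 84.4 and 120 RPKM in luminal SOX10 high cells, and 0 of 9 tested were called in limma, with 1 at an unadjusted p under 0.05 and 0 called under both rescalings. The 11 endothelial markers summed to 10.6 and 15.2 RPKM in basal cells, against 13.9 and 21.4 RPKM in luminal SOX10 high cells, with 1 of 6 tested higher, or 3 under both rescalings, and 2 lower. Von Willebrand factor (Vwf) among them was highest in luminal SOX10 low cells, at 19.8 and 25.5 RPKM, beside 0.582 and 1.38 RPKM in basal cells and 4.63 and 9.81 RPKM in luminal SOX10 high cells (-2.01). Of 8 fat cell markers only Fabp4 passed the filter, at 58.1 and 76.1 RPKM in basal cells, against 6.90 and 10.03 RPKM in luminal SOX10 high cells (2.85 ± 0.51), and 6 of the 8 stayed under 1 RPKM in all 6 libraries. The pericyte and muscle markers summed to 12.9 and 35.0 RPKM in basal cells, against 27.9 and 34.7 RPKM in luminal SOX10 high cells, and 2 of 4 tested were higher and 1 lower. The gene that was lower, Notch3, made up 24.1 and 28.3 RPKM of the luminal SOX10 high sums and 3.42 and 5.74 RPKM of the basal ones. The count that was higher was 3 under both rescalings, with the replicate block and without basal library 1, 1 without basal library 2 or luminal SOX10 high library 2, and 0 without luminal SOX10 high library 1. The pigment and Schwann cell markers summed to 26.2 and 22.2 RPKM in basal cells, against 8.21 and 7.93 RPKM in luminal SOX10 high cells, with 1 of 3 tested, Egr2, higher, and the 1 red cell marker tested, Alas2, was lower; its call was lost without basal library 1 or 2 or luminal SOX10 high library 1 (adjusted p = 0.0941, 0.0762 and 0.0928).

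Further named genes with large falls belong to none of the lists above. The potassium channel Kcnn4 was at 4.44 and 4.38 RPKM in basal cells, against 112 and 59.1 RPKM in luminal SOX10 high cells and 6.30 and 7.42 RPKM in luminal SOX10 low cells (-3.93 ± 0.28). Tesc, a calcium-binding regulator of proton exchange, was at 3.11 and 2.10 RPKM in basal cells, against 89.4 and 30.4 RPKM in luminal SOX10 high cells (-3.90 ± 0.45). Syne4, which links the nucleus to microtubules, was at 4.25 and 3.50 RPKM on the basal and 74.9 and 47.6 RPKM on the luminal SOX10 high side (-3.64). The small proteins Smim22 and Cystm1 differed by -3.95 and -3.61.

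Normal adult cells gave a related comparison outside the tumour, basal cells against luminal progenitors, though no label says that they were chosen by SOX10. The tables were made separately, so each was fitted on its own and the values are set side by side with no test between them. Of 12553 genes tested in the normal table, 2641 were higher in basal cells, which is 21.0%, and 1814 lower, which is 14.5%. The normal counts moved with the libraries: without luminal progenitor library 1 or 2, 878 and 1029 genes were lower, without library 2 of these 1500 were higher, and without adult basal library 1, 3335 were higher and 2839 lower. Among 11315 genes tested in both tables, 1450 were higher in tumour basal cells, and 784 of these were also higher in normal basal cells, which is 54.1% of the tumour list and 33.6% of the normal one. Another 74 were lower in normal basal cells. Of 3287 genes lower in tumour basal cells, 898 were also lower in normal basal cells, which is 27.3% of the tumour list and 52.4% of the normal one, and 212 were higher. Across these genes the differences correlated at 0.54 (Pearson) and 0.45 (Spearman), a description in which genes are not independent.

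Acta2 was at 306 and 135 RPKM in normal basal cells, against 7.56 and 11.3 RPKM in normal luminal progenitors (4.32, adjusted p = 0.000353), beside 5.09 in the tumour. Krt14 was at 1213 and 532 RPKM in normal basal cells, against 1.96 and 4.98 RPKM in luminal progenitors (7.58), beside 4.0. Vimentin was at 349.7 and 307 RPKM in normal basal cells, against 5.68 and 10.5 RPKM in luminal progenitors (5.23), beside 2.24. All 3 were higher on the basal side in both settings, with the larger fold in normal cells for Krt14 and Vim. Of the contractile list 12 of 13 were higher in normal basal cells and of the basal identity list 13 of 15. The luminal epithelial list was lower for 17 of 20 and the luminal progenitor list for 12 of 14, with Csn3 at 29.1 and 28.99 RPKM in normal basal cells, against 2966 and 3388 RPKM in luminal progenitors (-6.72).

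The hormone-sensing list differed between the settings by its counts. In tumour basal cells 10 of 11 were lower, and in normal basal cells 2 of 11 were higher and 1 lower. The normal comparison is with luminal progenitors and not with mature luminal cells, which these genes mark. Mature luminal libraries are in the normal table, but basal cells were not compared with them here. Whether the counts differ by the setting or by this choice of comparator was therefore not tested. Prlr was at 879.6 and 732 RPKM in normal basal cells, against 664 and 483 RPKM in luminal progenitors (0.50, adjusted p = 0.11), and Esr1 at 5.46 and 3.42 RPKM in normal basal cells, against 5.22 and 2.93 RPKM in luminal progenitors (0.11, adjusted p = 0.821). Mfge8 was at 37.4 and 34.01 RPKM in normal basal cells, against 277 and 230.0 RPKM in luminal progenitors (-2.79, adjusted p = 9.41e-05), the opposite of its direction in the tumour. Sox10 was at 4.41 and 8.31 RPKM in normal basal cells, against 4.85 and 11.6 RPKM in luminal progenitors (-0.28, adjusted p = 0.638), so that it did not pass the threshold between lineages in either setting.

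**Figure D4:**
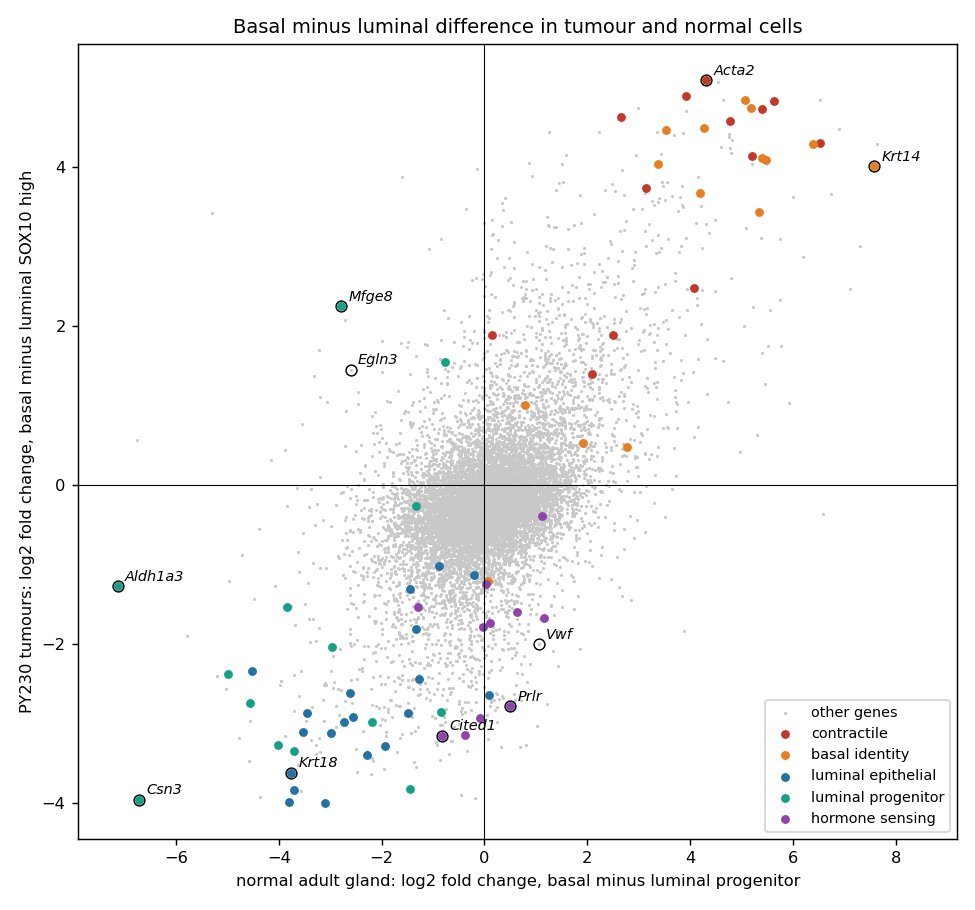
Log2 fold change, basal minus luminal progenitor in the normal adult gland (horizontal axis) against basal minus luminal SOX10 high in PY230 tumours (vertical axis), for the 11315 genes tested in both. Contractile and basal identity genes lie at the upper right, such as Acta2 at 4.32 and 5.09, luminal epithelial and luminal progenitor genes mostly at the lower left, and hormone-sensing genes lie below 0 in the tumour and on both sides of 0 in normal cells.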

How the data were processed

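SmartSeq2 cDNA of polyA RNA was amplified with 18 PCR cycles, tagmented with Nextera XT, amplified with 10 more and sequenced from a single end, per the labels' protocols. The method marks no strand and no molecules, so PCR copies count as reads, overlapping genes on opposite strands cannot be told apart, and genes with near-identical copies are uncertain. The authors deposited RPKM per gene in separate tables for PY230 and normal cells, with all columns matched to samples; the submitters' processing notes name StringTie 1.3.1c, HISAT2 2.0.5, FastQC and the mm9 build. The sources used here do not give the annotation, filters or read totals. Absolute depth is therefore unknown, no counting interval can be given, and the spread between libraries sets the precision (median residual SD 0.17 on the log2 scale).

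In each table, genes that reached 1 RPKM in 2 or more libraries were tested, on the log2(RPKM + 1) scale, by limma (version 3.58.1, R 4.3.3; intensity trend, no replicate term, two-sided, Benjamini-Hochberg over all genes tested). The 3 PY230 groups were fitted together, and the 4 normal groups likewise in a separate fit, which share 1 estimate of the spread each. The fit was tested on simulated data. With 2 libraries against 2, an exact permutation test of a single gene could not go below p = 0.333, so none is given. Alternatives changed the pseudocount, filter, scaling, samples, trend or replicate term, or left out a library.

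The comparison, the 32 gene lists and the naming rule were chosen with earlier results of these data known, so counts over lists are descriptions without a set test. Named genes are the 12 largest rises and 12 largest falls among called genes whose groups do not overlap and whose higher group averages 10 RPKM or more, up to 5 called members of each list by size, and a panel of lineage genes. The others were chosen after their values were seen: Cdh3, Oxtr, Nrg1, Krt6a, Krt16, Procr, Lamb3, Hspg2, Lama5, Itga6, Itgb4, Itga2, Col1a1, Fn1, Twist1, Snai1, Ocln, Cldn1, Cd24a, Grhl2, Mfge8, Wfdc18, Aldh1a3, Hey1, Fasn, Gata3, Pgr, Tbx3, Notch1, Hes1, Tcf7, Lgr6, Tgfb1, Tgfb3, Egfr, Erbb2, Etv5, Sox9, Col9a1, Col11a1, Cnmd, Ccnd1, Mki67, B2m, Fos, Cxcl1, Lif, Foxi1, Cck, Cbr2, Ptgs2, Npy, Mt2, Pdpn, Cgn and Crb3. The third table of the series, on C3-1-TAg tumours, was not used here.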

Additional observations from a re-analysis of the deposited data

Results flagged for a closer look

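A set of named genes stood out because both tumour basal libraries lay on one side of both luminal SOX10 high libraries while both normal basal libraries lay on the other side of both luminal progenitor libraries. Several of them, among them Cck, Cbr2, Ptgs2, Npy and Mt2, were named after their values were seen, so the set is a selection. Among the 11315 genes tested in both settings, 74 were called higher in the tumour and lower in normal cells. Another 212 were called the opposite way. The difference between the settings was not tested for any of the genes named. Each value is a log2 fold change, basal minus luminal, in the tumour and then in the normal gland.

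Higher in tumour basal cells and lower in normal basal cells were the gut and brain peptide gene Cck (3.42 and -5.31), the carbonyl reductase Cbr2 (3.87 and -1.61), the prostaglandin synthase Ptgs2 (2.97 and -1.09), the lactadherin gene Mfge8 (2.25 and -2.79), the prolyl hydroxylase Egln3 (1.45 and -2.60) and the chemokine Cxcl1 (1.23 and -1.12). All 6 passed the threshold in the normal table as well. Cck was at 42.01 and 23.2 RPKM in tumour basal cells, against 2.32 and 1.74 RPKM in luminal SOX10 high cells, and at 2.27 and 0 RPKM in normal basal cells, against 93.4 and 53.3 RPKM in luminal progenitors. The integrin Itga2 (1.54 and -0.77) and the protease inhibitor Timp2 (1.16 and -0.38) showed the same pattern without passing the threshold in normal cells. Egln3 lost its tumour call without basal library 2 (adjusted p = 0.0826) or luminal SOX10 high library 2 (adjusted p = 0.0573).

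Lower in tumour basal cells and higher in normal basal cells were the neuropeptide gene Npy (-1.84 and 3.89), the metallothionein Mt2 (-1.45 and 2.85), Vwf (-2.01 and 1.05), the transcription factor Tbx3 (-1.67 and 1.17) and the proliferation marker Mki67 (-0.53 and 1.22), which passed the threshold in the normal table. The prolactin receptor Prlr (-2.78 and 0.50), the progesterone receptor Pgr (-1.61 and 0.63), Tfap2b (-2.37 and 0.64), the laminin chain Lama5 (-0.99 and 0.37) and the mitotic gene Birc5 (-1.11 and 0.35) did not. Birc5 was near 0 in normal cells, at 0.447 and 0.736 RPKM in basal cells, against 0.278 and 0.218 RPKM in luminal progenitors. Tbx3, Prlr and Pgr are hormone-sensing genes, which mark mature luminal cells, while the normal comparison is with luminal progenitors. Mt2 was at 145 and 153 RPKM in tumour basal cells, against 383 and 435 RPKM in luminal SOX10 high cells, and at 5646 and 3113 RPKM in normal basal cells, against 619.7 and 543 RPKM in luminal progenitors. Some of these tumour calls were lost when 1 library was left out, which leaves 1 library in a group. The size of the difference could hold all the same. For Npy it was -1.841 without basal library 1 and -1.835 without basal library 2. For Pgr it shrank to -0.82 without luminal SOX10 high library 2. Without basal library 1, Npy, Pgr, Tbx3 and Birc5 were no longer called (adjusted p = 0.106, 0.158, 0.0654 and 0.0912), without basal library 2 Npy and Pgr were not (adjusted p = 0.102 and 0.102), and without luminal SOX10 high library 2 Pgr was not (adjusted p = 0.0511). Mki67 was no longer called under either rescaling, or without basal library 1 or 2 or luminal SOX10 high library 1 (adjusted p = 0.12, 0.0954 and 0.0947).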

How the results depend on the processing

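In the PY230 comparison, 5513 genes were called in all. With median-of-ratios factors 2340 genes were lower. Leaving out 1 library gave 3451 to 5552 calls in all, 1357 to 1694 higher and 2094 to 3879 lower, the lowest each time without basal library 1. No gene was called in opposite directions in the comparison as reported and in any alternative run. In the normal comparison, fitting only the 4 libraries compared gave 1373 calls, 915 higher and 458 lower, against 4455 over all 8 libraries; leaving out 1 library gave 2529 to 6174 calls, 1500 to 3335 higher and 878 to 2839 lower. Of 213 named genes 200 were called, and 172 of the 213 never lost a call or changed sign; of 2761 values under alternatives, 2641 kept direction and side of the threshold, 102 lost the call, 10 gained it and 8 changed sign. The sign changes concern 5 genes not called in the comparison as reported. Sox10 was at 0.00277 under quantile normalization, at 0.11 under median-of-ratios scaling, and ran from -0.43 to 0.16 as 1 library was left out. Over the same leave-outs Col9a1 ran from -0.045 to 0.96, Hey1 from -0.57 to 0.047, Krt16 from -0.22 to 1.27, and Fos from -0.0061 to 0.013, with -0.0056 without basal replicate 2. The cause was not tested. With the replicate number as a block, 5092 genes were called, 1724 higher and 3368 lower; 4558 were in the normal comparison. Deviations of same-numbered libraries correlated at 0.295 between the basal and luminal SOX10 high groups, and at -0.201 and -0.265 with the luminal SOX10 low group, and no label says whether same-numbered libraries share a tumour, so the numbers were not taken as pairs.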

Other observations

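A pair of genes known from ion-transporting cells was highest in luminal SOX10 high cells. Foxi1, the transcription factor of ionocytes and of intercalated cells in the kidney, was at 1.91 and 1.33 RPKM in basal cells, against 36.9 and 18.6 RPKM in luminal SOX10 high cells and 2.83 and 3.26 RPKM in luminal SOX10 low cells (-3.39 ± 0.31, adjusted p = 0.000356). Its known target Atp6v1b1, a proton pump subunit, was at 8.26 and 5.45 RPKM in basal cells, against 155 and 79.1 RPKM in luminal SOX10 high cells and 19.8 and 22.5 RPKM in luminal SOX10 low cells (-3.85 ± 0.32). Both were highest in luminal SOX10 high library 1. In normal cells Foxi1 was at 0 and 0.208 RPKM in basal cells, against 14.6 and 6.28 RPKM in luminal progenitors (-3.28), and Atp6v1b1 at 0.188 and 0.436 RPKM in basal cells, against 21.6 and 9.64 RPKM in luminal progenitors (-3.57).

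Further genes of apical polarity and junctions were lower in basal cells, with cingulin (Cgn) at 1.01 and 2.44 RPKM in basal cells, against 24.6 and 25.98 RPKM in luminal SOX10 high cells (-3.32), and the polarity protein Crb3 at 2.72 and 3.58 RPKM on the basal and 34.7 and 34.5 RPKM on the luminal SOX10 high side (-3.11). Podoplanin (Pdpn), a surface glycoprotein of basal cells, was at 54.01 and 51.9 RPKM in basal cells, against 3.71 and 3.07 RPKM in luminal SOX10 high cells (3.62). The 22 gamma-protocadherin genes tested were all called higher, with fold changes between 2.08 and 2.40; they share their last exons, so their values may rest on the same reads and stand for fewer than 22 separate results.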
